A study of Mus musculus with 9 samples.

Results

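The 10 genes described here, Fos, Fosb, Jun, Junb, Egr1, Ier2, Klf2, Klf4, Klf6 and Atf3, encode immediate early transcription factors and were picked by name out of the 37668 genes measured in mouse aorta. All 10 were found by symbol, and all 10 were above 1 FPKM (fragment counts scaled to transcript length and to library size) in every group. The tissue came from 9 male mice aged 90 days, of the strain background 129T2SvEmsJ:C57Blk/6J, under a series title that names Marfan syndrome. All carried a floxed allele of AT1ar, the angiotensin II type 1a receptor gene. The Cdh5Cre group (3 mice) also carried Cdh5-Cre, made for deletion in endothelial cells, the Sm22Cre group (3 mice) carried Sm22-Cre, made for deletion in smooth muscle cells, and the floxed group (3 mice) carried no Cre. No control with Cre and an unfloxed receptor is among the groups, so the presence of Cre and the loss of the receptor cannot be told apart. The labels list no fibrillin-1 allele for any mouse.

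Each value is the authors' single FPKM for a group of 3 libraries, so there are no replicates to set a difference against, and no SD, interval or p-value can be given. The depth of the libraries is unknown. The tissue was aorta taken as bulk, in which fewer cells of a type and less RNA per cell cannot be told apart. The target receptor gene Agtr1a stood at 1.32 FPKM in Cdh5Cre, 1.21 in Sm22Cre and 1.75 in floxed. The smooth muscle myosin gene Myh11 was at 1142, 1267 and 1341 FPKM in the same order, while Acta2, the smooth muscle actin gene, is listed at 0 in every group with a status marking too much data to estimate.

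Immediate early genes are switched on within minutes of a stimulus, without new protein synthesis, by transcription factors already present in the cell. Serum response factor with its ternary complex cofactors, CREB and the MEF2 factors carry MAP kinase and calcium signals to their promoters, and angiotensin II is among the stimuli that do so in cultured smooth muscle cells. Fos and Jun proteins pair through leucine zippers to form AP-1, Egr1 and the KLF proteins bind GC-rich sites through zinc fingers, and KLF2 is induced in endothelium by steady blood flow through MEF2. The same genes respond to handling and dissociation of tissue.

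The promoters are shown first, because the 10 genes are known for their control by few short elements. RefSeq windows of 300 bases, from 250 before to 50 after the annotated start on GRCm38.p6, were found for 8 of the 10 genes, all but Egr1 and Ier2. Windows are printed for Klf2 (chr8:72318812-72319111, plus strand) and Klf6 (chr13:5861239-5861538, plus strand), which lay on opposite sides in Cdh5Cre, and for the paralogues Jun (chr4:95052173-95052472, minus strand) and Junb (chr8:84978699-84978998, minus strand), which likewise differed. Shorter stretches are given for Atf3 (chr1:191183316-191183375, minus strand) and Fos (chr12:85473741-85473848, plus strand), to show a pair of elements in each. Capitals mark the MEF2 box (CTA and TAG with any 4 bases between them), the octamer TGACNTCA shared by AP-1 and CREB, and the CREB core TGACG, each on both strands.
Klf2: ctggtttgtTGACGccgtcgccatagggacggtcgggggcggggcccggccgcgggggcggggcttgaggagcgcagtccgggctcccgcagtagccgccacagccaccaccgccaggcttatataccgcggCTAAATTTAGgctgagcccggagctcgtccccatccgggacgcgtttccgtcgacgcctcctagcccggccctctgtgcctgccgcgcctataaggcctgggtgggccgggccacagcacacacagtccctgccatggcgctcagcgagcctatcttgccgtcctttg
Klf6: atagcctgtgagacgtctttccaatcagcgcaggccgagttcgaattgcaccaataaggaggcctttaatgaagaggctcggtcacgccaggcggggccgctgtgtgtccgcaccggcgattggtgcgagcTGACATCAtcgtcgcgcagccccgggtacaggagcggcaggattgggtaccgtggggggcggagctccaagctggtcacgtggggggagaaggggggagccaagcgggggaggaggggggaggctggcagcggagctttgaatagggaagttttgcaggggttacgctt
Jun: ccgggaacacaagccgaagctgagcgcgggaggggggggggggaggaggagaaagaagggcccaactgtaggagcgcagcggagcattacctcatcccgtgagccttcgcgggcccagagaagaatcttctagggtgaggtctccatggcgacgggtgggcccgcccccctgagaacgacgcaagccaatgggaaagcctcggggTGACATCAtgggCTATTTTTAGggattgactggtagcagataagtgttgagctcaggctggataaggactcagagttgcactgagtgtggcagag
Junb: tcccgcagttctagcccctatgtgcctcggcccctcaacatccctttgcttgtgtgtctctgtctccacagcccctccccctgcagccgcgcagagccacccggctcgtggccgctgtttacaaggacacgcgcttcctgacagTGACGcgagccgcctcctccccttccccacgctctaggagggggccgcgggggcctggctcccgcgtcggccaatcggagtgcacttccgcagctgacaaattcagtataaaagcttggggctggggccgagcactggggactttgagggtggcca
Atf3: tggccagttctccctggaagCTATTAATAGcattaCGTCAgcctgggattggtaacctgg
Fos: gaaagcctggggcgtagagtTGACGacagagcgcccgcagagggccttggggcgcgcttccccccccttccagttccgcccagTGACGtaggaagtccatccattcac

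The MEF2 box was in 3 of the 8 windows, those of Klf2, Jun and Atf3, beginning 118, 33 and 22 bases before the start, and in 3.69% of all 32851 windows of the same length. The octamer was in 2 of 8, Jun at 45 bases and Klf6 at 119 bases before the start, against 8.83% of all windows. The AP-1 heptamer TGANTCA was in none of the 8, against 7.81% of all windows. TGACG was in 6 of 8, those of Atf3, Fos, Fosb, Junb, Klf2 and Klf4, against 20.8% of all windows; it overlaps the octamer only where the free base of the octamer is G. The CArG box, the site of serum response factor, was in none of the 8 windows and in 1.63% of all. Sites outside the windows were not searched for any motif, and Egr1 and Ier2 had no window. The absence of a CArG box from the windows thus does not show that the genes lack the site. The motif counts are matches of letters in a short window, chosen with the values below known. They were not related to the values by a test. The windows held between 58.7% (Fos) and 74.3% (Klf4) G and C, against a median of 52.7% over all windows. The GC box GGGCGG was in 7 of 8 (35.7% of all windows), CACCC in 5 of 8 (57.5%) and the TATA box TATAAA in 2 of 8 (13.6%).

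Across the 10 genes the levels spanned from 4.51 FPKM (Fosb) to 71.4 (Jun) in Cdh5Cre, from 2.48 (Fosb) to 63.6 (Klf6) in Sm22Cre, and from 4.51 (Fosb) to 76.0 (Jun) in floxed. Their medians were 40.7, 26.3 and 27.7 FPKM in that order of groups, where the medians over the 14225 genes analysed, those with at least 1 FPKM in some group, were 9.77, 10.1 and 10.1. Together the 10 genes summed to 394.4 FPKM in Cdh5Cre, 280.1 in Sm22Cre and 322.9 in floxed, which was 0.0649%, 0.0560% and 0.0651% of all FPKM in the group. All FPKM summed to 607860, 500015 and 495724 in that order, so the total was largest in Cdh5Cre, and the share there was close to that in floxed. The order of levels differed between groups. Klf2 was second among the 10 genes in Cdh5Cre, at 69.5 FPKM, and the third in Sm22Cre and floxed, at 31.7 and 37.4. Klf6 was the third in Cdh5Cre, the first in Sm22Cre and second in floxed. Fosb and Fos were the lowest pair in every group.

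**Figure D1:**
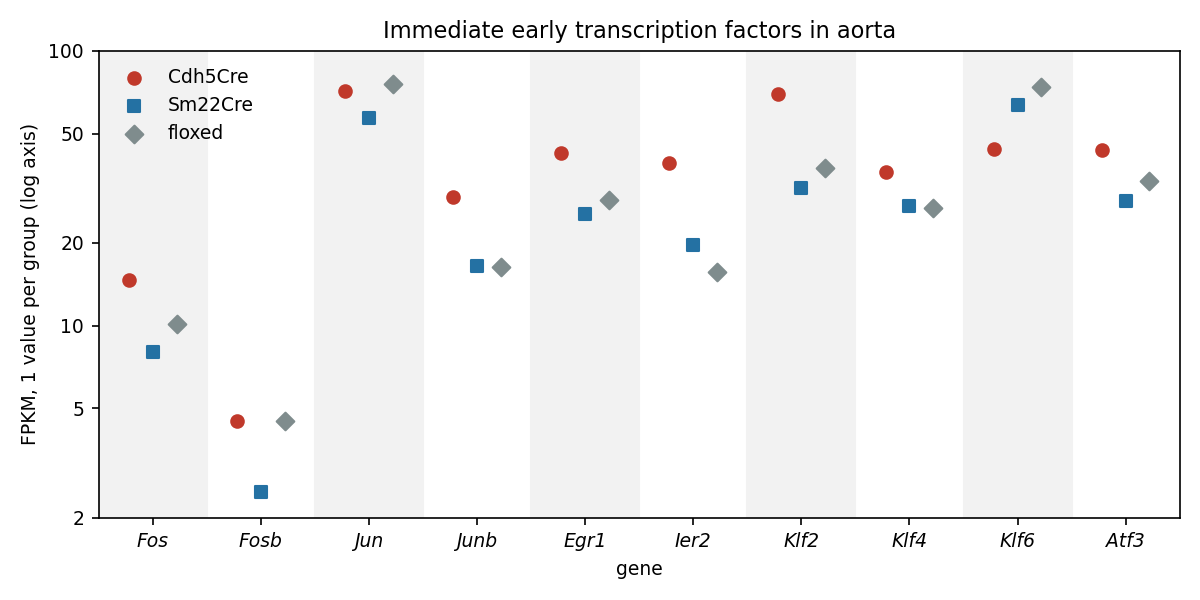
FPKM of each gene on a log axis, 1 point for each group (circle Cdh5Cre, square Sm22Cre, diamond floxed); a point is the authors' value for 3 libraries and has no error bar. The Cdh5Cre point is the highest of the 3 for Fos, Junb, Egr1, Ier2, Klf2, Klf4 and Atf3, and the lowest for Klf6.

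Ratios are given as log2 of (FPKM + 1) in the first group over the second, and a gene is counted where its ratio reaches 2-fold or, as a lower mark, 1.5-fold on that scale. Cdh5Cre was set against floxed first, where 1 of the 10 genes reached 2-fold and was higher, and 1.89% of all genes reached 2-fold (1.19% higher, 0.703% lower). At 1.5-fold the count was 4 of 10, 3 higher and 1 lower, with 14.3% of all genes past that mark (8.33% higher, 6.02% lower). By sign alone 8 were higher and 2 lower, against 51.7% and 48.2% of all genes. Fosb is among the 8 by a log2 ratio of 0.0001 only. With ratios centred on the median of all genes, 7 were higher. The median log2 ratio was 0.46 for the 10 genes and 0.02 for all genes analysed. For Sm22Cre against floxed none of the 10 reached 2-fold, as 0.633% of all genes did (0.302% higher, 0.33% lower). Only 1 reached 1.5-fold, as lower, where 1.54% of all genes did (0.619% higher, 0.921% lower). By sign 3 were higher and 7 lower, against 52% and 47.9% of all genes, and the medians were -0.22 and 0.01. Between the Cre groups, Sm22Cre over Cdh5Cre, 1 of 10 was past 2-fold, as lower, where 1.63% of all genes were (0.401% higher, 1.23% lower). At 1.5-fold 7 of 10 were lower and none higher, where 11.9% of all genes passed (4.34% higher, 7.57% lower). By sign 1 was higher and 9 lower, against 49.1% and 50.7% of all genes, and the medians were -0.69 and -0.01. The first and second comparisons share the floxed values, and each shares a group with the third, so they are not independent of each other.

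**Figure D2:**
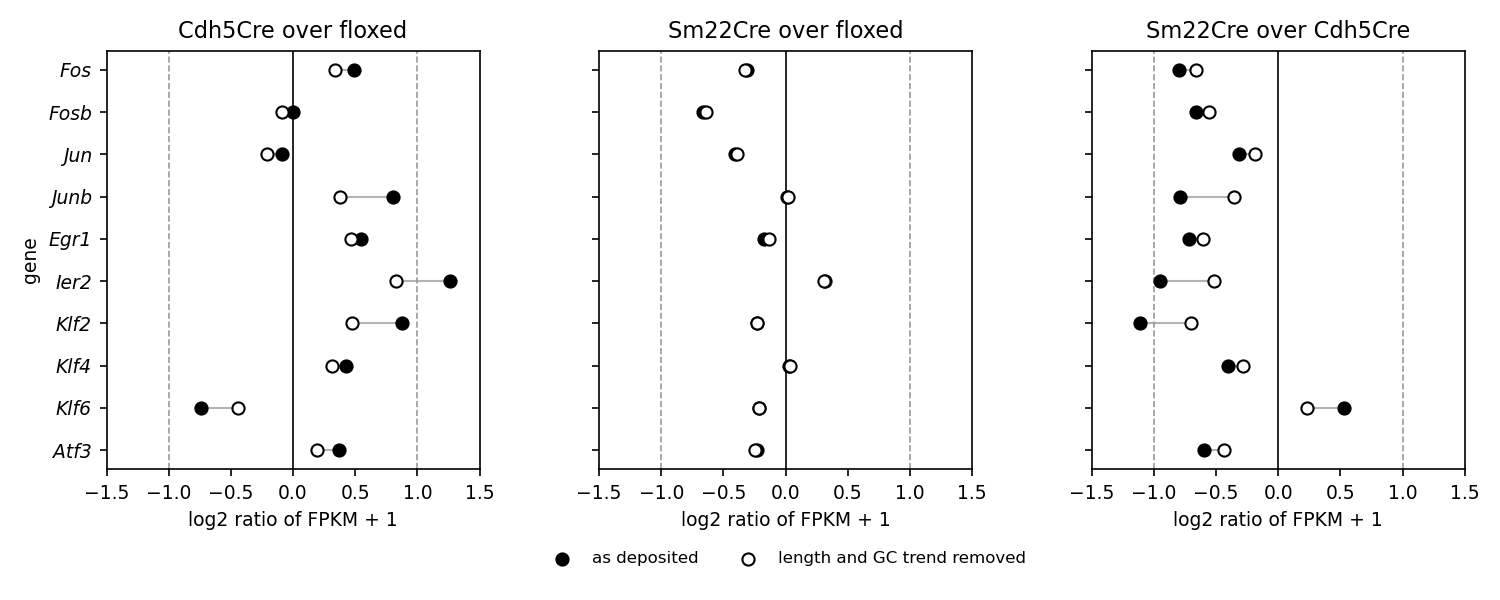
Log2 ratio of FPKM + 1 for each gene in the 3 comparisons, from the deposited values (filled) and after a trend fitted over all genes to transcript length and GC was taken out (open); dashed lines mark 2-fold. Ier2 lies past 2-fold in Cdh5Cre over floxed and Klf2 in Sm22Cre over Cdh5Cre, and neither does so with the trend removed.

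The Fos subunits of AP-1 were the lowest of the 10 genes. Fos (ENSMUSG00000021250, mm9 chromosome 12, 86814840 to 86818223), which cannot pair with itself and binds DNA as a partner of Jun, stood at 14.6 FPKM in Cdh5Cre, 7.99 in Sm22Cre and 10.1 in floxed. Its Cdh5Cre value was 44.3% above floxed (log2 0.49) and its Sm22Cre value 1.27-fold below (log2 -0.31). Fosb (ENSMUSG00000003545, chromosome 7, 19888070 to 19895394), a Fos paralogue whose spliced form accumulates on repeated stimulation in brain, was at 4.51 FPKM in Cdh5Cre, 2.48 in Sm22Cre and 4.51 in floxed. Fosb thus stood alike in Cdh5Cre and floxed, and Sm22Cre alone was apart, 1.82-fold below floxed. That log2 ratio of -0.66 was the lowest of the 10 genes in Sm22Cre against floxed and the only one past 1.5-fold, and 0.696% of all genes analysed lay lower. Fos lay at percentile 2.58 there. Per length, Fos was 3.24 times Fosb in Cdh5Cre, 3.23 times in Sm22Cre and 2.25 times in floxed.

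The Jun subunits did not follow each other. Jun (ENSMUSG00000052684, chromosome 4, 94715725 to 94834009), the main DNA-binding partner of Fos, was at 71.4 FPKM in Cdh5Cre, 57.1 in Sm22Cre and 76.0 in floxed, so floxed was the highest. Its log2 ratio was -0.09 in Cdh5Cre and -0.40 in Sm22Cre, each against floxed, and the Sm22Cre ratio lay at percentile 1.53 of all genes. Junb (ENSMUSG00000052837, chromosome 8, 87500811 to 87502617), a weaker activator that can oppose Jun, was at 29.3 FPKM in Cdh5Cre, 16.5 in Sm22Cre and 16.4 in floxed. Cdh5Cre stood apart for Junb, 79.1% above floxed (log2 0.80, percentile 97.2), and Sm22Cre lay 0.827% above floxed. Jun was 2.44 times Junb in Cdh5Cre, 3.47 times in Sm22Cre and 4.64 times in floxed, per length. The Jun values carry a limit: the listed locus of 118285 bases also covers Junos, 4930551L18Rik and n-R5s189, and the authors' status was FAIL in every pair, so fragments may have been divided among them.

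Egr1 and Ier2 are induced through serum response factor along with Fos. Egr1 (ENSMUSG00000038418, chromosome 18, 35020861 to 35024763), a zinc finger factor, was at 42.4 FPKM in Cdh5Cre, 25.4 in Sm22Cre and 28.7 in floxed. Cdh5Cre was 47.6% above floxed (log2 0.55) and Sm22Cre 1.13-fold below (log2 -0.17). Its status was FAIL in both pairs with Cdh5Cre, and its listed locus is shared with a gene without a symbol. Ier2 (ENSMUSG00000053560, chromosome 8, 87185230 to 87186751), a nuclear protein, was at 39.0 FPKM in Cdh5Cre, 19.7 in Sm22Cre and 15.7 in floxed. Both Cre groups lay above floxed, Cdh5Cre by 2.49-fold (log2 1.26, percentile 99.4) and Sm22Cre by 1.26-fold (log2 0.31, percentile 97.3). Ier2 was the only one of the 10 genes above floxed by more than 0.03 on the log2 scale in Sm22Cre. Its status was OK in all 3 pairs.

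The 3 Krüppel-like factors went different ways in Cdh5Cre. Klf2 (ENSMUSG00000055148, chromosome 8, 74842932 to 74845555), known for its role in quiescent endothelium and in T cells, was at 69.5 FPKM in Cdh5Cre, 31.7 in Sm22Cre and 37.4 in floxed. Cdh5Cre was 1.86-fold above floxed (log2 0.88, percentile 98.0) and Sm22Cre 1.18-fold below floxed (log2 -0.23). The Sm22Cre value was 2.19-fold below Cdh5Cre (log2 -1.11), and 0.879% of all genes lay lower. Klf4 (ENSMUSG00000003032, chromosome 4, 55540013 to 55545347), which acts with Klf2 in endothelium and lowers contractile genes in smooth muscle cells, was at 36.3 FPKM in Cdh5Cre, 27.3 in Sm22Cre and 26.7 in floxed. Klf4 was 35.8% above floxed in Cdh5Cre and 1.91% above in Sm22Cre. Klf6 (ENSMUSG00000000078, chromosome 13, 5860735 to 5869639), an injury-induced factor of many cell types, was at 43.9 FPKM in Cdh5Cre, 63.6 in Sm22Cre and 73.9 in floxed. It was the one gene of the 10 whose Cdh5Cre value was the lowest of the 3, 1.68-fold below floxed (log2 -0.74, percentile 2.65), and Sm22Cre lay 1.16-fold below (log2 -0.21). Klf2 was 1.58 times Klf6 in Cdh5Cre, 0.499 times in Sm22Cre and 0.506 times in floxed, per length, while the sum of Klf2, Klf4 and Klf6 was 149.7, 122.5 and 138.1 FPKM.

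Atf3 (ENSMUSG00000026628, chromosome 1, 192994175 to 193007219), a stress-induced relative of CREB that can pair with Jun, was at 43.5 FPKM in Cdh5Cre, 28.4 in Sm22Cre and 33.5 in floxed. Cdh5Cre was 29.9% above floxed and Sm22Cre 1.18-fold below, with log2 ratios of 0.37 and -0.23. Atf3 was thus the highest in Cdh5Cre and the lowest in Sm22Cre, an order it shared with Fos, Egr1 and Klf2.

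A property of the transcripts moved with these ratios. For 12317 of the genes analysed a protein-coding transcript was found in GENCODE M21. A fit on its length and GC content took up 44.8% of the variance of the log2 ratios of Cdh5Cre over floxed, 3.78% of those of Sm22Cre over floxed and 46.4% of those of Sm22Cre over Cdh5Cre. The longest transcripts of the 10 genes had a median length of 2569 bases and 55.8% GC, against 3120 bases and 50.4% over all genes. They had a median of 3.5 exons against 9, with Jun, Junb and Ier2 in 1 exon. Junb, Klf2 and Ier2 were among the richest transcripts in GC, at 62.6%, 61.6% and 60.9% (percentiles 98.6, 97.7 and 96.8), and short, at 1809, 1847 and 1522 bases. Klf6 was at the other end, at 42.4% GC (percentile 11.7) and 4225 bases. Among the 10 genes, Spearman's rho of the Cdh5Cre against floxed ratio was 0.73 with GC content and -0.68 with length, as a description of genes that share the same libraries.

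**Figure D3:**
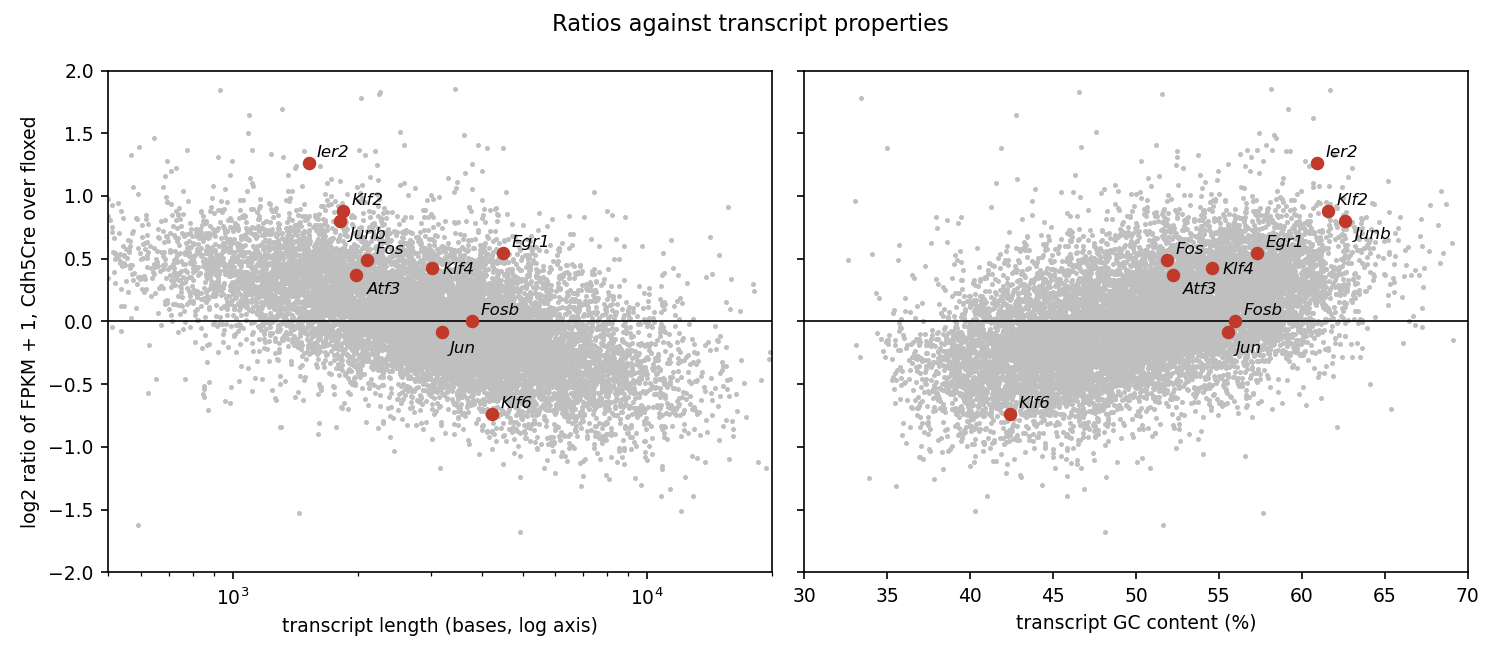
Log2 ratio of FPKM + 1 in Cdh5Cre over floxed against transcript length (log axis) and GC content, for 12317 genes (grey) with the 10 genes in red; 84 genes lie outside the axes on the left and 22 on the right. Ier2, Klf2 and Junb sit at short, GC-rich transcripts and Klf6 at a longer transcript of 42.4% GC; over all genes the ratios run lower with length and higher with GC content, and Ier2 lies near the upper edge.

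With the trend removed, the ratios of Cdh5Cre against floxed drew closer to 0 for 8 of the 10 genes. The ratio of Jun moved further below 0, and that of Fosb, which had been 0.0001, passed below it. Ier2 became 0.83 (percentile 99.2), Klf2 0.48, Egr1 0.47, Junb 0.38, Fos 0.34, Klf4 0.32 and Atf3 0.19. Below 0 lay Fosb at -0.09, Jun at -0.21 and Klf6 at -0.45. None of the 10 then reached 2-fold (0.65% of genes did), 1 reached 1.5-fold (4.86%), and the median was 0.33 against -0.02 over all genes. The ratios of Sm22Cre against floxed hardly moved, with Fosb at -0.64 and the median at -0.22, none of the 10 past 2-fold (0.292%) and 1 past 1.5-fold (0.934%). Between Sm22Cre and Cdh5Cre none reached 2-fold (0.731%) and 3 reached 1.5-fold (3.93%): Klf2 at -0.70, Fos at -0.66 and Egr1 at -0.60.

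Other subunits of AP-1 and the related small Maf factors, 8 of 9 analysed, had a median log2 ratio of 0.23 in Cdh5Cre against floxed, with 5 higher, 3 lower and none past 2-fold. Batf3, among the 5 higher, passed the 1 FPKM filter only through Cdh5Cre, at 1.19 FPKM. Jund was at 309.9 FPKM in Cdh5Cre and 192.7 in floxed, and Maff at 17.5 and 11.3, while Atf2 was at 17.0 and 25.0 and Fosl2 at 18.4 and 21.1. With the trend removed the median was -0.09, below 0. For Sm22Cre against floxed 3 were higher and 5 lower (median -0.05), with Batf3 (0.766 and 0.587 FPKM) and Mafk (41.0 and 37.8) at the top and Jund (170.3 and 192.7) and Fosl1 (1.46 and 1.66) at the bottom.

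The other immediate early transcription regulators were mostly higher in Cdh5Cre, 10 of 11, with a median of 0.57 and of 0.46 with the trend removed. Nfil3, a bZIP repressor, was the 1 of 11 past 2-fold, at 8.80 FPKM in Cdh5Cre and 3.83 in floxed (log2 1.02), and its ratio was short of 2-fold, at 0.80, with the trend removed. Cebpd, a bZIP activator induced in inflammation, was at 108.1 and 58.4 FPKM. The lowest were the orphan nuclear receptor gene Nr4a2 (3.46 and 4.64) and Egr3 (2.46 and 2.24). Sm22Cre values were above floxed for 6 and below for 5, none by 2-fold, with a median of 0.02. Nfil3 was at 7.43 FPKM in Sm22Cre and 3.83 in floxed and Nr4a3 at 4.13 and 2.78, and at the other end Nr4a1 was at 25.5 and 34.8 and Cebpb at 7.86 and 9.35. Nr4a1 and Cebpb were the 2 of 11 past 2-fold in Sm22Cre against Cdh5Cre, where Nr4a1 was at 25.5 and 56.1 FPKM and Cebpb at 7.86 and 17.3. With the trend removed their log2 ratios there were -0.89 and -0.45.

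Immediate early genes that do not encode transcription factors, 20 of 21 analysed, had a median of 0.25 in Cdh5Cre against floxed, with 17 higher, 3 lower and none past 2-fold. The median was 0.13 with the trend removed and 0.10 with sums rescaled, where 13 were higher. The medians over all genes were then -0.02 and -0.16. Phlda1, a pleckstrin homology domain protein, was at 18.7 FPKM in Cdh5Cre and 10.6 in floxed, and Socs3, which dampens cytokine signals, at 6.09 and 3.33. The MAP kinase phosphatase gene Dusp6 was at 7.81 and 8.91 FPKM, and Ptgs2, the inducible cyclooxygenase, at 5.08 and 5.63. Of the same 20 genes 10 were higher and 10 lower in Sm22Cre than in floxed, with a median of 0.00. There the matricellular genes Ccn2 and Ccn1 lay at opposite ends, with Ccn2 at 783.2 FPKM in Sm22Cre and 532.2 in floxed and Ccn1 at 108.0 and 157.3.

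**Figure D4:**
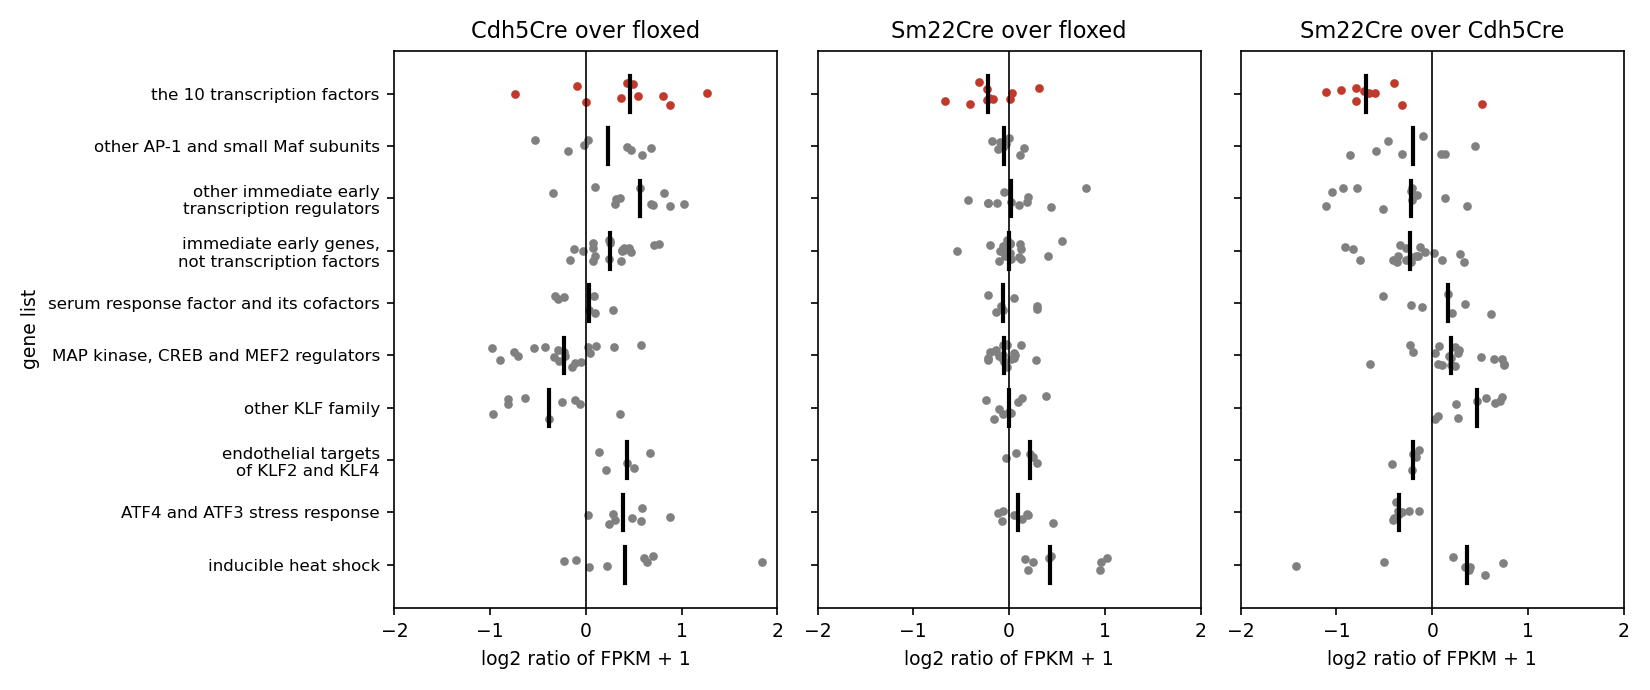
Log2 ratios of FPKM + 1 of every analysed gene (points) in each of 10 lists, with the list median (bar), in the 3 comparisons; vertical jitter only separates the points. In Cdh5Cre over floxed the 10 transcription factors (red) have a median of 0.46, and of the other KLF genes 8 of 9 lie left of 0 (median -0.38).

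Upstream regulators were measured as well. Of 7 genes for serum response factor and its cofactors, 4 were higher and 3 lower in Cdh5Cre against floxed, with a median of 0.03. That median was -0.03 with the trend removed, -0.06 under quantile normalization and -0.17 with sums rescaled. The medians over all genes under the same settings were -0.02, -0.01 and -0.16. Elk4 was at 19.7 FPKM in Cdh5Cre and 16.0 in floxed and Myocd at 22.9 and 28.9. Of 19 MAP kinase, CREB and MEF2 genes, 14 were lower in Cdh5Cre (median -0.23). Mef2a was at 35.9 FPKM in Cdh5Cre and 71.7 in floxed and Creb1 at 9.96 and 19.4, both with status FAIL, and with the trend removed their log2 ratios were -0.59 and -0.31. At the upper end Map2k2 was at 87.8 and 58.5 FPKM and Mapk7, which encodes the kinase ERK5, at 14.8 and 11.9. Neither list had a gene past 2-fold in any comparison, and their medians in Sm22Cre against floxed were -0.07 and -0.05.

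Other KLF genes were lower in Cdh5Cre in 8 of 9 analysed, with a median of -0.38 and of -0.34 with the trend removed, and none past 2-fold. Klf12 was at 1.99 FPKM in Cdh5Cre and 4.87 in floxed, and Klf9, a glucocorticoid-induced factor, at 47.2 and 83.6. Klf10, which TGF-beta induces, was the 1 higher gene, at 9.42 and 7.17 FPKM. Sm22Cre values were above floxed for 4 of the 9 and below for 5. Klf6 was thus below floxed in Cdh5Cre along with most of the family, and Klf2 and Klf4 were above it. Of 5 genes known as endothelial targets of KLF2 and KLF4, all 5 were higher in Cdh5Cre than in floxed, with a median of 0.43, and 4 of 5 in Sm22Cre, with a median of 0.22, none by 2-fold. In Cdh5Cre 4 of 5 were higher with the trend removed (median 0.47) and with sums rescaled (median 0.23, against -0.16 over all genes). General endothelial markers were higher in Cdh5Cre in 11 of 12, with a median of 0.50. Nos3, endothelial nitric oxide synthase, was at 20.1 FPKM in Cdh5Cre, 14.7 in Sm22Cre and 12.3 in floxed, and the sphingosine 1-phosphate receptor gene S1pr1 at 17.7, 15.2 and 12.2. In Cdh5Cre, Aqp1 (176.0 and 159.9 FPKM) and Cyp1b1 (21.5 and 18.4) were the lowest of the 5.

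Stress genes induced under similar conditions were also measured. All 8 genes of the ATF4 and ATF3 stress response were higher in Cdh5Cre than in floxed, none by 2-fold, with a median of 0.39. With the trend removed 6 of 8 were higher (median 0.15), and with sums rescaled 7 of 8 (median 0.26). Chac1 passed the 1 FPKM filter only in the Cre groups, at 1.43 FPKM in Cdh5Cre, 1.05 in Sm22Cre and 0.971 in floxed. Ddit4 was at 25.5 FPKM in Cdh5Cre and 13.4 in floxed, and Ddit3, which encodes CHOP, at 43.7 and 28.7. Inducible heat shock genes summed to 1195 FPKM in Cdh5Cre, 869.1 in Sm22Cre and 608.1 in floxed. Of these sums Hspb1 alone held 715.3, 265.3 and 198.5 FPKM. In Sm22Cre against Cdh5Cre 6 of the 8 were higher and 2 lower, with a median of 0.37. In Cdh5Cre against floxed 6 of 8 were higher and 1 was past 2-fold, the small heat shock protein gene Hspb1, at 715.3 and 198.5 FPKM with status FAIL (median 0.41). In Sm22Cre against floxed all 8 were higher, with a median of 0.43, and 1 was past 2-fold. This was the Hsp70 gene Hspa1b, at 106.6 FPKM in Sm22Cre and 51.9 in floxed. Hsph1 followed at 53.5 and 27.0, and both had status FAIL in that pair. Hspa1b has a near-identical copy in Hspa1a, so its share of fragments is uncertain. The heat shock list was thus above floxed in Sm22Cre, where 7 of the 10 immediate early factors were below it.

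Markers of cell types also differed between the groups, some lists more than others. Erythroid markers summed to 25453 FPKM in Cdh5Cre, 9028 in Sm22Cre and 4020 in floxed, with all 5 analysed of 6 past 2-fold as higher in both Cre groups. Platelet markers summed to 266.7, 87.9 and 45.1 FPKM and neutrophil markers to 40.9, 11.5 and 3.01 in the same order, with all 6 platelet and all 3 analysed of 5 neutrophil markers past 2-fold as higher in Cdh5Cre than in floxed. With the trend removed Pf4, at 0.49, and Retnlg, at 0.92, were short of 2-fold there. Retnlg passed the 1 FPKM filter only through Cdh5Cre, at 2.37 FPKM against 0.917 in Sm22Cre and 0.282 in floxed. Endothelial markers summed to 558.4, 411.9 and 366.7 FPKM, with 11 of 12 higher in Cdh5Cre than in floxed and a median of 0.50. Adventitial fibroblast markers summed to 3529, 2258 and 2342 FPKM, with 6 of 7 higher in Cdh5Cre than in floxed and a median of 0.48. That median depended on the scaling. It was 0.43 with the trend removed (7 of 7 higher), 0.28 with sums rescaled (5 of 7) and 0.01 under quantile normalization (4 of 7). Heart muscle markers summed to 1326 FPKM in Cdh5Cre, 395.0 in Sm22Cre and 877.2 in floxed, with all 8 lower in Sm22Cre than in floxed. Lymphoid markers, which summed to 27.1, 16.9 and 13.9 FPKM, were higher in Cdh5Cre in all 5 analysed of 7. All of these but Coro1a passed the 1 FPKM filter only through Cdh5Cre, so their direction was fixed by the filter. Coro1a was at 21.2 FPKM in Cdh5Cre, 13.5 in Sm22Cre and 11.8 in floxed. Macrophage and adipocyte sums differed less, at 258.5, 254.6 and 235.5 FPKM and at 521.5, 481.6 and 457.7 FPKM. Their medians in Cdh5Cre against floxed were -0.07 and 0.14. Smooth muscle markers, 6 of 7 analysed, summed to 7417, 7042 and 7133 FPKM and had a median of -0.05 in Cdh5Cre and -0.04 in Sm22Cre against floxed. In Cdh5Cre against floxed the smooth muscle median was -0.49 under quantile normalization and -0.26 with sums rescaled. The medians over all genes were then -0.01 and -0.16. Apart from Acta2, no marker on these lists was at 0 in any group. Their part in the values of the 10 transcription factors was not tested.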

How the data were processed

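RNA sequencing of aorta was made by the submitters in 3 groups of 3 mice. Per the labels' protocols, RNA from frozen tissue with an integrity number above 8 was used for stranded poly-A libraries, read as paired ends. Cufflinks 1.3.0, TopHat2 2.0.8, Bowtie2 2.1.0, SAMtools 0.1.7 and build mm9 are named, per the submitters' processing notes. The role of each tool, the annotation and whether strand was used are not given in the sources used here. FPKM values were deposited in 1 table, which per the file headers also gives a status for each gene and pair of groups, which the authors had combined to 1 value per group, so each value stands for 3 libraries and depth is unknown. The FPKM values are model estimates for combined libraries, so no count test was run.

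Symbols were matched by Ensembl identifier (32638 of 37668 genes). Listed starts were taken as counted from 0, and 1 was added. Each group is listed in 2 pairs and 1 of them was used; 15 genes differ between pairs, none of them among the 10. Genes with at least 1 FPKM in some group were analysed (14225), after removal of 1 gene with status HIDATA. Status was OK for 71.8% of them in Cdh5Cre against floxed and 75.6% in Sm22Cre against floxed. For named genes outside the 10, status FAIL and shared loci are mentioned for some only, so others named also carry these limits. Log2 ratios used a pseudocount of 1 FPKM and understate differences of low genes; folds and percentages are plain FPKM ratios. The trend was a least squares fit of the ratio on log2 transcript length, GC content, their squares and product, with residuals returned to the median ratio. The fit was tried on simulated data whose trend was linear in log2 length and GC content. That trend lies within the fitted model, so its recovery does not show how well the trend in these data was removed. Python 3.11.15, pandas 2.3.3 and NumPy 2.4.6 were used. The 10 genes, the lists and the rules were chosen with earlier results of these data known. All 10 genes are named; from each list, those with the 2 highest and 2 lowest ratios in a comparison could be named. The alternatives tried were other pseudocounts and filters, centring, quantile normalization, rescaled sums, status OK alone, removal of the trend, the other pair's values and removal of genes with a shared locus. Promoter windows came from RefSeq on GRCm38.p6, another build than the table's, and no coordinates were converted.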

Additional observations from a re-analysis of the deposited data

How the results depend on the processing

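Each value is a group's single FPKM, so library-level alternatives could not be run, and without libraries no size here can be set against the spread between mice. No paired analysis was possible because the table gives no values per library. Of 316 ratios of the 10 genes recomputed under 11 alternatives, 309 kept their direction and their side of 2-fold. Several alternatives could only drop a gene or repeat its value, so this count overstates how firmly the ratios hold. Ier2 fell short of 2-fold in Cdh5Cre against floxed, which left a count of 0, with the trend on length and GC content removed (0.83). Klf2 fell short in Sm22Cre against Cdh5Cre, for a count of 0, with the trend removed (-0.70), under quantile normalization (-0.99) and with sums rescaled without blood, heart muscle and mitochondrial genes (-0.91). Fosb in Cdh5Cre against floxed, at 0.00, came out below 0 when centred (-0.02), rescaled (-0.17) or with the trend removed (-0.09). The median of the 10 genes moved to 0.26 when rescaled and 0.33 with the trend removed in Cdh5Cre against floxed, and to -0.52 and -0.48 in Sm22Cre against Cdh5Cre. Rescaling shifted the median of all genes by -0.18 and 0.17 in these comparisons. The cause of these shifts was not tested. In Sm22Cre against floxed the median of the 10 genes stayed between -0.24 and -0.21 under these 11 alternatives. Omitting the filter cannot change a value of the 10 genes by construction. The stricter filter, status OK alone and removal of genes with a shared locus can only leave genes out. None of the 10 differed when read from the other pair.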

Other observations

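The genes whose pattern over the 3 groups was nearest to that of the 10 transcription factors were taken among 2573 genes with at least 10 FPKM in every group, status OK in every pair and no shared locus. Likeness was the distance of a gene's log2 ratios in Cdh5Cre and Sm22Cre, each against floxed, to the medians of the 10 genes (0.46 and -0.22). The 5 nearest were Sap30l, Acbd6, Fbln7, Tmem176a and Twist1. Sap30l was at 24.3 FPKM in Cdh5Cre, 14.9 in Sm22Cre and 17.6 in floxed, at a distance of 0.0097. Twist1, a basic helix-loop-helix factor of mesenchymal cells, was at 22.5, 14.4 and 16.1 FPKM, at a distance of 0.075. With 3 group values a near match is easily had, and nothing on shared control follows from it.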
